A study of Arabidopsis thaliana with 42 samples.

Results

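ZAT5, ZAT6, ZAT7, ZAT10, ZAT11, ZAT12, AZF1 and AZF2 are 8 Arabidopsis thaliana genes for C2H2 zinc finger proteins, taken by locus identifier from the 27667 loci of the deposited table. All 8 had counts in both kinds of library and all 8 were tested in both. The 42 RNA-seq libraries came from whole seedlings, 5 days old, in 14 groups of 3 replicates. The groups were total and polysome-bound poly(A)+ RNA of untreated seedlings labelled rh6812 and of untreated Col-0, and rRNA-depleted RNA of seedlings labelled rh6812 and of Col-0 at 0, 15, 30, 60 and 120 min with cordycepin. Col-0 is the wild-type accession, and it is also the stated ecotype of the rh6812 seedlings. The label rh6812 stands for RH6, RH8 and RH12, which encode DEAD-box RNA helicases, and the labels do not say which alleles were combined. Cordycepin is an adenosine analogue that ends RNA chains and is used to block the making of new transcripts. How complete the block was in these seedlings was not tested.

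C2H2 zinc finger proteins of the ZAT and AZF type are short plant proteins that bind DNA and carry an EAR motif, through which they recruit corepressors and hold other genes down. Their own transcripts are known to appear and vanish quickly when a leaf or root meets cold, salt, wounding, touch or reactive oxygen. The 3 helicases belong with DHH1 of yeast and DDX6 of animals, proteins that take part in decapping mRNAs and in holding back their translation. The comparisons below ask how much of each member's mRNA was present in the helicase line and how much of it was on polysomes. They also ask how the mRNA moved once cordycepin was added.

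Each member has a single annotated exon and no gene annotated over it in RefSeq TAIR10.1. ZAT7 (AT3G46090) lies at chr3:16925881-16926883 on the minus strand, in a tandem run with ZAT8 and AT3G46070. ZAT10 (AT1G27730), which RefSeq lists as STZ, lies at chr1:9648021-9649323 on the minus strand, and ZAT12 (AT5G59820), listed as RHL41, at chr5:24102814-24103794 on the plus strand. ZAT6 (AT5G04340) lies at chr5:1216058-1217362 and AZF1 (AT5G67450) at chr5:26918765-26920179, both on the minus strand. ZAT5 (AT2G28200) lies at chr2:12023940-12025370 and ZAT11 (AT2G37430) at chr2:15706285-15707224, both on the plus strand, and AZF2 (AT3G19580) at chr3:6802903-6804296 on the minus strand. None of the 50-base windows of any of the 8 transcripts was found elsewhere in the genome, so reads of that length from ZAT7 have no second exact match in ZAT8.

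The promoters of 4 members are shown because 3 of them hold the core of a heat shock element and 2 hold a GCC-box, the words found in the members most often relative to promoters at large. Each is the 250 bases before the annotated start, read 5′ to 3′ on the gene's strand from RefSeq TAIR10.1, at chr3:16926884-16927133 for ZAT7, chr5:24102564-24102813 for ZAT12, chr1:9649324-9649573 for ZAT10 and chr5:1217363-1217612 for ZAT6. Capitals mark every match, on either strand, to the 6 words searched, which were CGCGTT (the core of the rapid stress response element), TTGACC and TTGACT (W-boxes), CACGTG (the G-box), GAANNTTC (the heat shock element core) and GCCGCC (the GCC-box).
ZAT7: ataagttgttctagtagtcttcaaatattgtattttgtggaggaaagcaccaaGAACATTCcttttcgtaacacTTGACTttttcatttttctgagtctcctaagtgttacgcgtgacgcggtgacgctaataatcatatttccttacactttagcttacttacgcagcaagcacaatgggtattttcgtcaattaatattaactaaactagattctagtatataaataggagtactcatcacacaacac
ZAT12: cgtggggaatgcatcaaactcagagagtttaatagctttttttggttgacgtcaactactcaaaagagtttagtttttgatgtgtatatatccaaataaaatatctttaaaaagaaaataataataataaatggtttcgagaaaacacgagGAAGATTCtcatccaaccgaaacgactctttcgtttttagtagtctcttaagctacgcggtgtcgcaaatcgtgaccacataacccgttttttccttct
ZAT10: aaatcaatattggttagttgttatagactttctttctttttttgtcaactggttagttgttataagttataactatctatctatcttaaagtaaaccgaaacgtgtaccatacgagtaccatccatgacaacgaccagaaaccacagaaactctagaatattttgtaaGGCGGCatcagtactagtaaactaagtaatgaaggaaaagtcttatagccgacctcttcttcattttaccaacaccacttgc
ZAT6: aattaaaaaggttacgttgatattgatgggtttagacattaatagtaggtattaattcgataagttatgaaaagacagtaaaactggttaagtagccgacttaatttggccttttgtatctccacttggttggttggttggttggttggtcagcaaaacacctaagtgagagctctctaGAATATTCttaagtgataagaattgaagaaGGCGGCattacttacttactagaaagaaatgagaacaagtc

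GAANNTTC was present in 4 of the 8 promoters, at base -197 of ZAT7, -99 of ZAT12, -71 of ZAT6 and -212 of ZAT11, counted back from the annotated start, and in 9.55% of 27443 promoters of the same length. GCCGCC was present in 2 of the 8, as its complement GGCGGC at -82 of ZAT10 and -41 of ZAT6, and in 1.87% of all promoters. TTGACT was present in 3 (ZAT5, ZAT7 and AZF1) against 19.1% of all promoters, and TTGACC in 2 (ZAT11 and AZF2) against 12.2%. CGCGTT and CACGTG were in none of the 8 windows, against 2.59% and 6.49% of all promoters. None of these matches overlapped another. A match is a string of letters and not a measured binding site, and the words were picked with the expression results known.

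Before the members, the label was checked against the helicases themselves. RH8 averaged 2.84 ± 0.73 CPM (the count relative to the TMM-scaled library total; mean ± SD, n = 3) in rh6812 total RNA and 32.7 ± 0.16 CPM in Col-0, and RH12 24.4 ± 1.5 CPM in rh6812 and 38.5 ± 2.0 CPM in Col-0. RH6 went against its label, at 132 ± 5.0 CPM in rh6812 and 54.5 ± 2.0 CPM in Col-0, and every direction below is that of libraries labelled rh6812. The log2 differences of the 3 helicases ran from -3.48 to 1.27 in total RNA. In rRNA-depleted RNA at 0 min they ran from -3.34 to 3.42. There too 1 helicase rose and 2 fell, while 24.4% of all genes rose and 24.0% fell. A gene's count does not show which part of the RH6 transcript was read. The 12 poly(A)+ libraries held between 4611462 and 30654342 counts and the 30 rRNA-depleted ones between 11463206 and 22251739. Leaf markers were present in every group and summed to 28300 to 32300 CPM in rh6812 total RNA and 21300 to 28100 CPM in Col-0, with none of 3 at 0. Root markers summed to 2040 to 2110 CPM in rh6812 total RNA and 979 to 1200 CPM in Col-0, with none of 6 at 0, but to 793 to 836 CPM in rh6812 polysomes and 918 to 1010 CPM in Col-0 polysomes, with 1 of 6 at 0 in each. Single markers went both ways. In total RNA 2 of 3 leaf markers and 4 of 6 root markers rose in rh6812, and 1 of each list fell. Of all genes 32.2% rose and 32.4% fell. In polysome RNA 1 of 6 root markers rose and 2 fell, with log2 differences from -4.72 to 6.73, while 30.2% of all genes rose and 33.3% fell. In rRNA-depleted RNA at 0 min root markers summed to 2800 to 3280 CPM in rh6812 and 2000 to 2110 CPM in Col-0. Leaf markers summed to 10200 to 11100 CPM in rh6812 and 10200 to 12600 CPM in Col-0. There 3 of 6 root markers rose and 1 fell, and 0 of 3 leaf markers rose and 1 fell, against 24.4% and 24.0% of all genes. The part of root tissue in the members' differences was not tested. In these bulk samples more cells with a transcript and more of it per cell cannot be told apart.

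In total RNA 7 of the 8 members rose in rh6812 and none fell, while 32.2% of the 20949 genes tested rose and 32.4% fell. The median of the members was 1.40 on the log2 scale and that of all genes -0.03. Scaled by library size alone, which moved the median of all genes to -0.18, 5482 genes were called higher and 8448 lower. ZAT7, ZAT12 and ZAT10 had the 3 largest differences, ZAT5 had the smallest of the 7, and AZF1 did not pass the test. Summed over the 8, the level was 84.3 ± 5.1 CPM in rh6812 and 30.96 ± 5.5 CPM in Col-0 (SD, n = 3 each).

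ZAT7, a repressor linked to salt tolerance, had 7.10, 9.97 and 11.3 CPM in the 3 rh6812 total libraries, against 0, 0.0775 and 0.238 CPM in the Col-0 total libraries. It was all but silent in Col-0, where these values stand for 0, 2 and 3 counts, against 94, 228 and 256 counts in rh6812. The log2 difference was 6.86 ± 0.45 (SE; edgeR's quasi-likelihood test with Benjamini-Hochberg adjustment, adjusted p = 3.4e-11), and its size rests on those few Col-0 counts. Its tandem neighbour ZAT8, no member, averaged 5.22 ± 2.06 CPM in rh6812 and 0.103 ± 0.082 CPM in Col-0, a log2 difference of 5.59 ± 0.53 (adjusted p = 3.5e-08).

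ZAT12, known for its part in the response to reactive oxygen and in holding back iron uptake, had 19.6, 22.04 and 24.99 CPM in rh6812 total RNA, against 4.29, 2.87 and 4.99 CPM in Col-0. Every rh6812 library lay above every Col-0 library, and the log2 difference was 2.501 ± 0.248 (adjusted p = 4.6e-07). ZAT10, a repressor induced by salt, cold and drought, had 15.1, 17.4 and 15.8 CPM in rh6812, against 3.38, 2.56 and 4.52 CPM in Col-0. Here too the groups lay well apart, by 2.27 ± 0.18 on the log2 scale (adjusted p = 1.6e-11).

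The other called members moved less. ZAT11, linked to tolerance of metal ions, had 2.27, 1.75 and 1.45 CPM in rh6812, against 0.739, 0.62 and 0.475 CPM in Col-0, a log2 difference of 1.48 ± 0.34 (adjusted p = 0.00032). AZF2, a repressor induced by salt and abscisic acid, had 7.93, 4.59 and 6.96 CPM in rh6812, against 2.85, 1.78 and 3.25 CPM in Col-0, a log2 difference of 1.32 ± 0.25 (adjusted p = 6.4e-05). ZAT6, linked to phosphate and cadmium responses, had 9.66, 10.4 and 12.3 CPM in rh6812, against 6.37, 4.15 and 6.42 CPM in Col-0, a log2 difference of 0.96 ± 0.19 (adjusted p = 8e-05). The groups of these 3 members did not overlap. The share of all genes whose groups did not overlap was not counted, here or for the other comparisons.

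ZAT5 and AZF1 were the members whose total RNA groups overlapped. ZAT5 had 13.9, 11.6 and 13.4 CPM in rh6812, against 8.69, 8.76 and 11.7 CPM in Col-0, a log2 difference of 0.435 ± 0.129 (adjusted p = 0.0041). With library size alone in place of TMM it was 0.283 and no longer passed the test (adjusted p = 0.065). AZF1, a relative of AZF2 with a like response to salt, had 4.38, 5.56 and 3.66 CPM in rh6812, against 5.84, 4.11 and 4.198 CPM in Col-0. Its log2 difference was -0.07, with a 95% interval of -0.50 to 0.36 (adjusted p = 0.78), which leaves room for changes of either sign up to about that size.

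**Figure D1:**
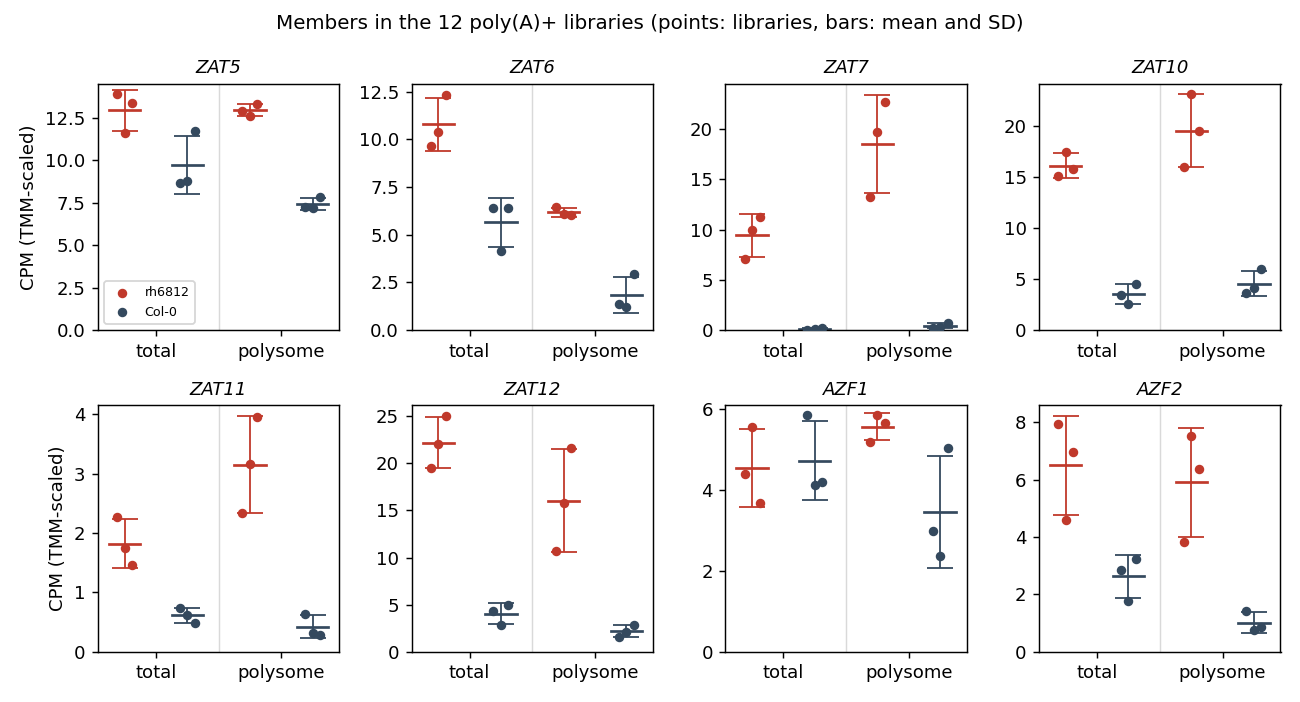
TMM-scaled CPM of each member in the 12 poly(A)+ libraries, 1 panel a gene, with rh6812 in red and Col-0 in dark blue, total RNA on the left and polysome RNA on the right of each panel; points are libraries and bars the mean and SD of 3. ZAT7 sits near 0 in all 6 Col-0 libraries and between 7.10 and 22.7 CPM in rh6812, and AZF1 overlaps in total RNA and not in polysome RNA.

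On polysomes all 8 members rose in rh6812, while 30.2% of the 20949 genes tested rose and 33.3% fell. By library size alone, 5591 genes were called higher and 7767 lower, at a median of -0.14. The median log2 difference was 2.17 for the members and -0.05 for all genes. The summed level was 87.8 ± 15.2 CPM in rh6812 polysomes and 21.2 ± 4.5 CPM in Col-0 polysomes.

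ZAT7 had 13.2, 19.7 and 22.7 CPM in rh6812 polysomes, against 0.236, 0.322 and 0.692 CPM in Col-0, and differed by 5.48 ± 0.35 on the log2 scale (adjusted p = 2.2e-11). ZAT12 had 10.7, 15.8 and 21.6 CPM in rh6812, against 1.59, 2.04 and 2.88 CPM in Col-0, and differed by 2.87 ± 0.30 (adjusted p = 9.6e-07). ZAT11 had 2.34, 3.16 and 3.96 CPM in rh6812, against 0.642, 0.322 and 0.288 CPM in Col-0, and differed by 2.67 ± 0.37 (adjusted p = 2.8e-07). In each of these 3 the highest Col-0 library lay below the lowest rh6812 library. AZF2 differed by 2.27 ± 0.33, ZAT10 by 2.07 ± 0.19, ZAT6 by 1.75 ± 0.26 and ZAT5 by 0.81 ± 0.15, with adjusted p of 1.6e-05 or less.

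AZF1 had 5.18, 5.83 and 5.64 CPM in rh6812 polysomes, against 2.97, 2.36 and 5.02 CPM in Col-0. The log2 difference was 0.63 ± 0.24 (adjusted p = 0.024), and the Col-0 libraries were spread more widely than the rh6812 ones. This call was lost when Col-0 polysome replicate 1 (0.47, adjusted p = 0.13) or Col-0 polysome replicate 2 (0.49, adjusted p = 0.089) was left out.

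Whether a member's share on polysomes differed between the genotypes was tested as ribosome association, the genotype difference on polysomes minus that in total RNA. No member passed that test in edgeR or in DESeq2, while 9.76% of all genes did in edgeR. 4 of the 8 had an unadjusted p under 0.05, namely ZAT6 (0.79, 95% interval 0.12 to 1.45), ZAT11 (1.20, 0.13 to 2.26), AZF1 (0.705, 0.05 to 1.36) and AZF2 (0.95, 0.09 to 1.81), all 4 with a positive log2 value. Their adjusted p ran from 0.13 to 0.18. Here and below, the share of all genes with an unadjusted p under 0.05 was not counted, so such counts describe the named genes only. ZAT7 had -1.38 with an interval of -3.23 to 0.47, and ZAT10 -0.20 with an interval of -0.74 to 0.34. Of the 6 root markers 3 were called lower and 0 higher in this test (median -1.59), while 9.76% of all genes were called. Leaving out 1 library brought 3 members past the threshold in edgeR. ZAT6 passed without Col-0 polysome replicate 3 (1.27, adjusted p = 0.008) or Col-0 total replicate 2 (0.98, adjusted p = 0.039), AZF1 without Col-0 polysome replicate 3 (1.05, adjusted p = 0.031) and AZF2 without rh6812 polysome replicate 1 (1.37, adjusted p = 0.035).

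Within a genotype, polysome RNA was set against total RNA. All 6 root markers were lower in polysome than in total RNA in both genotypes (median log2 -5.05 in rh6812 and -2.87 in Col-0). Leaf markers were higher, 3 of 3 in rh6812 and 2 of 3 in Col-0. Of all genes 26.0% were higher and 27.2% lower in rh6812, and 30.7% higher and 27.0% lower in Col-0. The part of tissue in the members' polysome values was not tested. In rh6812 ZAT7 (0.91 ± 0.23 on the log2 scale, adjusted p = 0.002) and ZAT11 (0.76 ± 0.31, adjusted p = 0.038) were higher in polysome than in total RNA and ZAT6 was lower (-0.80 ± 0.21, adjusted p = 0.0022), while 26.0% of all genes were higher and 27.2% lower. With scaling by library size alone, 3541 genes were called higher and 7363 lower in rh6812 polysomes, and 3840 higher and 8037 lower in Col-0 polysomes, and ZAT11 was not called (0.60, adjusted p = 0.11), while ZAT12 was (-0.68, adjusted p = 0.0052). With the replicate number as a block ZAT12 was lower as well (-0.545, adjusted p = 0.0012, against -0.53 and 0.072 without it). The ZAT11 call did not hold without rh6812 polysome replicate 2 (0.77, adjusted p = 0.054), rh6812 polysome replicate 3 (0.55, adjusted p = 0.19), rh6812 total replicate 2 (0.74, adjusted p = 0.081) or rh6812 total replicate 3 (0.61, adjusted p = 0.14), nor in DESeq2 (adjusted p = 0.076), and ZAT12 passed without rh6812 polysome replicate 3 (-0.83, adjusted p = 0.0016).

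In Col-0 polysomes ZAT6 (-1.585 ± 0.24, adjusted p = 2.4e-06), AZF2 (-1.20 ± 0.32, adjusted p = 0.0025), ZAT12 (-0.90 ± 0.33, adjusted p = 0.029) and ZAT5 (-0.36 ± 0.14, adjusted p = 0.025) were lower than in Col-0 total RNA and ZAT7 was higher (2.29 ± 0.85, adjusted p = 0.026), while 30.7% of all genes were higher and 27.0% lower. The groups of ZAT7 and of ZAT12 overlapped. ZAT7 had only 7, 3 and 12 counts in Col-0 polysomes, against 0, 2 and 3 counts in Col-0 total RNA. ZAT6 and AZF2 kept their calls whichever library was left out. The ZAT12 call was lost without Col-0 polysome replicate 1 (-0.62), Col-0 polysome replicate 2 (-0.89), Col-0 total replicate 1 (-0.81) or Col-0 total replicate 3 (-0.77). The ZAT5 call was lost without Col-0 polysome replicate 1 (-0.33), Col-0 polysome replicate 2 (-0.34) or Col-0 total replicate 3 (-0.23), and the ZAT7 call without Col-0 polysome replicate 3 (1.69), Col-0 total replicate 1 (1.54) or Col-0 total replicate 2 (2.31). ZAT10 passed without Col-0 polysome replicate 1 (0.63, adjusted p = 0.018) or Col-0 total replicate 3 (0.59, adjusted p = 0.018), and AZF1 without Col-0 polysome replicate 3 (-0.79, adjusted p = 0.0052) or with library size alone (-0.67, adjusted p = 0.011).

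The rRNA-depleted libraries at 0 min were a separate set of libraries, made by a different method. All 8 members rose in rh6812 there too, while 24.4% of the 21486 genes tested rose and 24.0% fell. The members' median log2 difference was 1.05, against -0.02 for all genes. Library size alone gave 7203 genes called higher and 2573 lower, at a median of 0.20. The order of the members was not that of total RNA, since AZF1 was among the 3 largest. ZAT7 again had the largest difference, but it was smaller than in total RNA and close to that of ZAT12.

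ZAT12 had 43.0, 49.2 and 45.6 CPM in rh6812 at 0 min, against 10.2, 13.5 and 11.5 CPM in Col-0, and differed by 1.97 ± 0.26 on the log2 scale (adjusted p = 1.2e-06). AZF1 had 9.67, 11.5 and 15.6 CPM in rh6812, against 2.53, 4.19 and 4.47 CPM in Col-0, and differed by 1.71 ± 0.27 (adjusted p = 1.4e-05). ZAT7 had 6.06, 7.29 and 9.29 CPM in rh6812, against 1.96, 0.68 and 2.99 CPM in Col-0, and differed by 1.98 ± 0.33 (adjusted p = 2.8e-05). None of these 3 members' groups overlapped. ZAT10 had 136, 108 and 133 CPM in rh6812, against 58.8, 60.9 and 76.0 CPM in Col-0, and differed by 0.95 ± 0.18 (adjusted p = 8.5e-05).

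The remaining 4 members passed with smaller margins. ZAT5 had 8.91, 14.2 and 9.53 CPM in rh6812, against 3.20, 7.95 and 3.71 CPM in Col-0, and differed by 1.13 ± 0.31 (adjusted p = 0.0045). ZAT6 had 57.0, 36.8 and 32.3 CPM in rh6812, against 20.3, 26.8 and 17.7 CPM in Col-0, and differed by 0.96 ± 0.23 (adjusted p = 0.0015). AZF2 had 19.1, 19.5 and 20.3 CPM in rh6812, against 10.3, 12.3 and 14.6 CPM in Col-0, and differed by 0.665 ± 0.172 (adjusted p = 0.0023). These rh6812 libraries all lay above the Col-0 ones, although Col-0 replicate 2 came close for ZAT5. ZAT11 had 7.13, 4.59 and 4.14 CPM in rh6812, against 2.68, 1.41 and 3.93 CPM in Col-0, and differed by 0.96 ± 0.33 (adjusted p = 0.019), a call lost without rh6812 0 min replicate 1 (0.68, adjusted p = 0.13) or Col-0 0 min replicate 2 (0.67, adjusted p = 0.11).

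Levels in the 2 kinds of library cannot be compared by a test, since kit and scaling differ between them and harvest may differ too. They are given side by side for ZAT10, which averaged 126 ± 15 CPM at 0 min and 16.1 ± 1.2 CPM in total RNA in rh6812, and 65.2 ± 9.4 CPM at 0 min and 3.48 ± 0.98 CPM in total RNA in Col-0. AZF1 averaged 12.3 ± 3.0 CPM at 0 min and 4.53 ± 0.96 CPM in total RNA in rh6812, and 3.73 ± 1.05 CPM at 0 min and 4.72 ± 0.97 CPM in total RNA in Col-0. The 15 genes listed for touch and wounding summed to 944 to 1420 CPM at 0 min and 353 to 442 CPM in total RNA in rh6812, and to 533 to 1190 CPM at 0 min and 247 to 260 CPM in total RNA in Col-0. The clock gene LHY, which peaks around dawn, averaged 37.6 ± 2.8 CPM in rh6812 and 73.8 ± 9.6 CPM in Col-0 at 0 min, but 46.9 ± 3.1 CPM in rh6812 and 3.84 ± 0.34 CPM in Col-0 in total RNA. LHY was 1 of 7 clock genes listed. At 0 min the 7 summed to 154 to 159 CPM in rh6812 and 202 to 235 CPM in Col-0. In total RNA they summed to 152 to 159 CPM in rh6812 and 185 to 222 CPM in Col-0. At 0 min 0 of the 7 rose in rh6812 and 4 fell, while 24.4% of all genes rose and 24.0% fell. In total RNA 2 rose and 4 fell, while 32.2% of all genes rose and 32.4% fell. The part of the clock, of touch and of the kit in the members' levels was not tested.

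**Figure D2:**
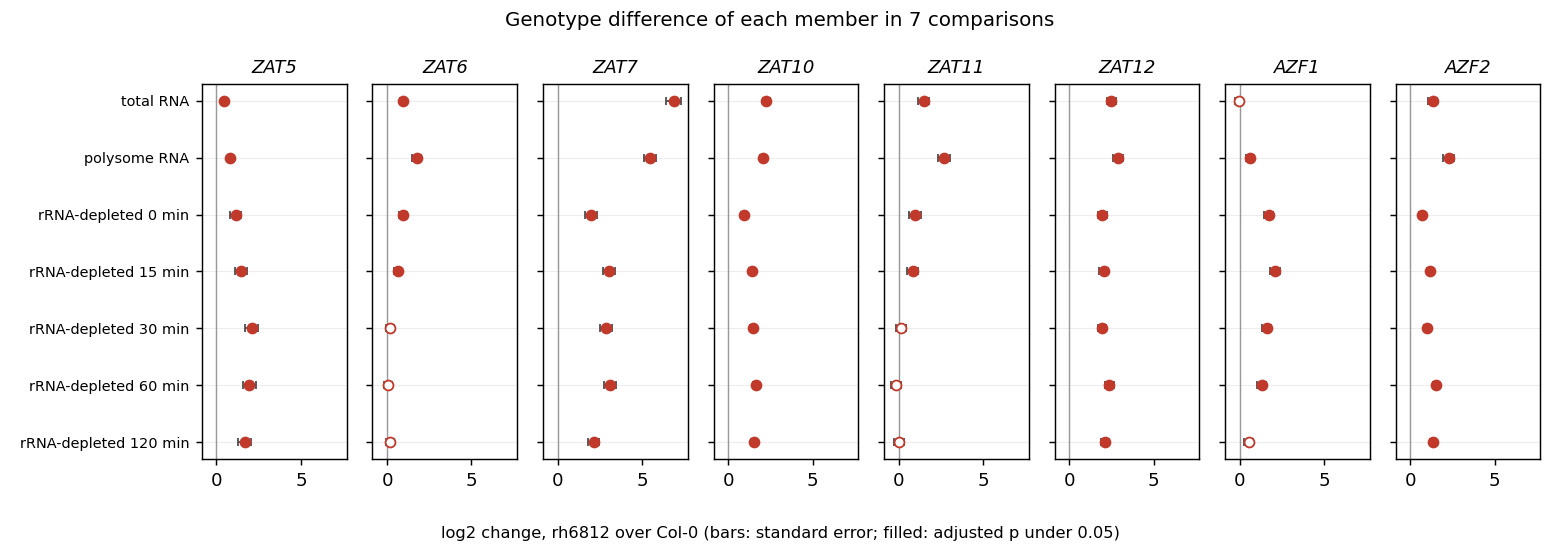
Log2 difference of rh6812 over Col-0 for each member, 1 panel a gene, in total RNA, polysome RNA and at the 5 cordycepin times from top to bottom; bars are standard errors and filled points have an adjusted p under 0.05. ZAT7, ZAT10, ZAT12, AZF2 and ZAT5 are filled in all 7 rows, ZAT6 and ZAT11 are open at 30, 60 and 120 min, and AZF1 is open in total RNA and at 120 min.

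With cordycepin, the difference between the genotypes was called throughout for 5 members and only at some times for the other 3. At 15 min all 8 members were called higher in rh6812, while 24.8% of all genes were. At 30 min 6 of the 8 were (23.7% of all genes), at 60 min 6 (26.7%) and at 120 min 5 (29.8%), and no member was called lower at any of these times. The members' median log2 difference was 1.43 at 15 min, 1.54 at 30 min, 1.59 at 60 min and 1.45 at 120 min, with that of all genes between -0.04 and 0.03. On library size alone, the genes called higher and lower numbered 7126 and 3029 at 15 min, 8258 and 2171 at 30 min, 8556 and 2558 at 60 min and 10093 and 2487 at 120 min, with medians of all genes from 0.18 to 0.42.

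ZAT12 was called at all 5 times, with log2 differences of 1.97, 2.04, 1.95, 2.36 and 2.11 from 0 to 120 min. At 120 min it had 61.7, 92.7 and 47.4 CPM in rh6812, against 15.6, 14.1 and 16.8 CPM in Col-0. Replicate 2 of rh6812 stood high at 60 min as well, at 82.7 CPM against 43.5 and 35.9 CPM in the other rh6812 libraries of that time, while the 60 min Col-0 libraries held 10.7, 8.73 and 12.2 CPM. Without that library the 60 min difference was 1.92, and all leave-one-out values of ZAT12 at 60 and 120 min kept the call.

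ZAT7 differed by 1.98, 3.04, 2.89, 3.09 and 2.13 on the log2 scale at the 5 times and was called at each. At 15 min it had 12.03, 13.4 and 10.3 CPM in rh6812, against 1.21, 1.64 and 1.49 CPM in Col-0. At 120 min it had 7.86, 10.2 and 5.79 CPM in rh6812, against 1.79, 1.26 and 2.22 CPM in Col-0. The groups stayed apart throughout, though no Col-0 library held more than 67 counts of ZAT7. ZAT10 differed by 0.95, 1.40, 1.49, 1.65 and 1.54, and AZF2 by 0.665, 1.16, 1.01, 1.53 and 1.36, both called at each time.

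ZAT10 had 85.0, 119 and 81.4 CPM in rh6812 at 60 min, against 30.5, 22.4 and 38.2 CPM in Col-0. AZF2 had 13.98, 20.3 and 14.3 CPM in rh6812 at that time, against 5.24, 5.94 and 5.62 CPM in Col-0. In both the lowest rh6812 library held more than the highest Col-0 library, and replicate 2 was the high rh6812 library, as for ZAT12. ZAT5 differed by 1.13, 1.46, 2.09, 1.95 and 1.66 at the 5 times and was called at each, with 4.98, 5.80 and 6.69 CPM in rh6812 at 60 min, against 1.60, 1.63 and 1.28 CPM in Col-0.

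ZAT6 and ZAT11 were the members whose genotype difference was no longer called from 30 min on. ZAT6 had 34.0, 29.7 and 25.8 CPM in rh6812 at 30 min, against 26.9, 27.7 and 25.8 CPM in Col-0, a log2 difference of 0.155 with an interval of -0.32 to 0.63 (adjusted p = 0.60). At 60 min its interval was -0.43 to 0.52 and at 120 min -0.31 to 0.64. ZAT11 had 6.60, 5.97 and 6.54 CPM in rh6812 at 30 min, against 4.79, 5.24 and 7.19 CPM in Col-0, a log2 difference of 0.15 with an interval of -0.47 to 0.78 (adjusted p = 0.70). The groups of both members overlapped at 30, 60 and 120 min. The intervals of ZAT11 were -0.78 to 0.42 at 60 min and -0.55 to 0.61 at 120 min, and differences within them in either direction were not excluded.

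Already at 15 min the calls of both were near the threshold. ZAT6 differed by 0.63 ± 0.23 (adjusted p = 0.027) and lost its call without Col-0 15 min replicate 1, 2 or 3 or without rh6812 15 min replicate 1, with values of 0.65, 0.61, 0.62 and 0.51. ZAT11 differed by 0.84 ± 0.32 (adjusted p = 0.032) and lost its call without Col-0 15 min replicate 1 or 2 or rh6812 15 min replicate 1 or 2, with values of 0.68, 0.60, 0.76 and 0.88. The range of ZAT11 over all 6 libraries left out was 0.60 to 1.38.

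AZF1 differed by 1.71, 2.09, 1.59, 1.298 and 0.52 on the log2 scale from 0 to 120 min. It was called at 0, 15, 30 and 60 min, and at 15 min it had 10.6, 10.09 and 12.1 CPM in rh6812, against 1.31, 2.46 and 3.93 CPM in Col-0. At 120 min it had 9.85, 9.63 and 10.14 CPM in rh6812, against 7.65, 4.51 and 8.41 CPM in Col-0, and the interval of the log2 difference was -0.025 to 1.07 (adjusted p = 0.097). The groups did not overlap even then. With library size alone in place of TMM, which moved the median of all genes to 0.42 at 120 min, AZF1 (0.91, adjusted p = 0.006) and ZAT6 (0.53, adjusted p = 0.028) were called at that time.

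**Figure D3:**
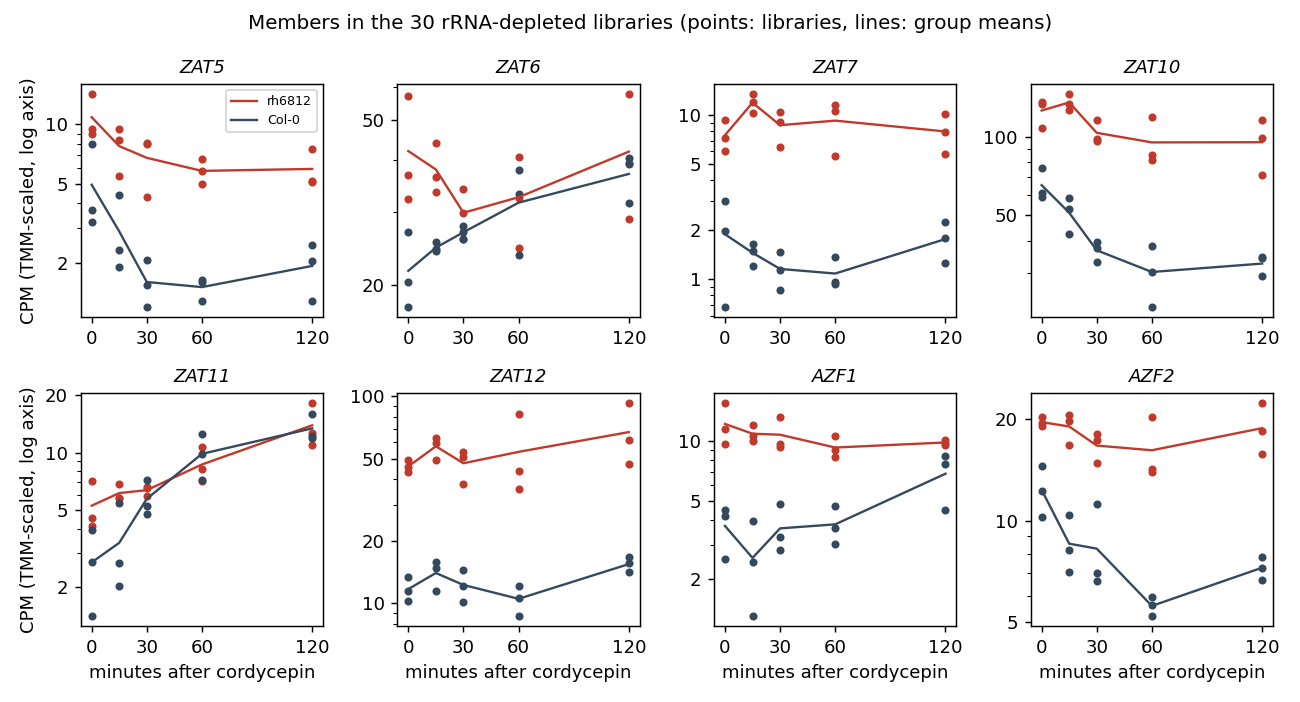
TMM-scaled CPM of each member on a log axis against minutes with cordycepin, 1 panel a gene, with rh6812 in red and Col-0 in dark blue; points are the 30 rRNA-depleted libraries and lines join group means. The points of the 2 genotypes overlap for ZAT6 and ZAT11 from 30 min on and do not overlap at any time for ZAT7, ZAT10, ZAT12, ZAT5 and AZF2.

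The time courses themselves are relative to the bulk of transcripts, because TMM sets a typical gene to no change at every time. From 0 to 30 min no member passed the test in rh6812, in edgeR or in DESeq2, while 2.95% of all genes did; 2 members (ZAT5 and ZAT6) had an unadjusted p under 0.05. In Col-0 3 members fell (ZAT5, ZAT10 and AZF2) and 1 rose (ZAT11), while 5.24% of all genes fell and 5.90% rose. The difference between the genotypes was called for no member by either tool, with 0.275% of all genes called by edgeR, and 2 members (ZAT6 and ZAT10) had an unadjusted p under 0.05.

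ZAT10 in Col-0 had 33.0, 37.5 and 39.7 CPM at 30 min, against 58.8, 60.9 and 76.0 CPM at 0 min. It fell by 0.83 ± 0.18 on the log2 scale (adjusted p = 0.0019), and this call held whichever library was left out. In rh6812 ZAT10 had 116, 96.3 and 97.8 CPM at 30 min, against 136, 108 and 133 CPM at 0 min, a log2 change of -0.28 (adjusted p = 0.60). The 2 changes differed by 0.54, with an interval of 0.03 to 1.06 (adjusted p = 0.64), and a different early loss in the 2 genotypes was not shown.

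ZAT5 in Col-0 had 1.20, 2.05 and 1.54 CPM at 30 min, against 3.20, 7.95 and 3.71 CPM at 0 min, and fell by 1.62 ± 0.38 (adjusted p = 0.0053). Col-0 replicate 2 at 0 min was the high library, and without it the change was -1.11 (adjusted p = 0.061). In rh6812 ZAT5 had 4.32, 8.09 and 7.93 CPM at 30 min, against 8.91, 14.2 and 9.53 CPM at 0 min, a log2 change of -0.67 (adjusted p = 0.37). Its mean at 120 min was 54.7% of that at 0 min in rh6812 and 38.8% in Col-0.

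AZF2 in Col-0 had 6.64, 11.2 and 7.002 CPM at 30 min, against 10.3, 12.3 and 14.6 CPM at 0 min, and fell by 0.58 ± 0.18 (adjusted p = 0.035), though the groups overlapped. This call was lost without Col-0 0 min replicate 2 (-0.59) or 3 (-0.46) or Col-0 30 min replicate 1 (-0.44) or 3 (-0.47). In rh6812 its mean at 30 min was 85.2% of that at 0 min, a log2 change of -0.23 (adjusted p = 0.70).

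ZAT11 was the 1 member that rose. In Col-0 it had 4.79, 5.24 and 7.19 CPM at 30 min, against 2.68, 1.41 and 3.93 CPM at 0 min, and rose by 1.08 ± 0.33 relative to the bulk (adjusted p = 0.037). The call was lost without Col-0 0 min replicate 1 (1.07) or 2 (0.78) or Col-0 30 min replicate 2 (1.14) or 3 (0.89), or with library size alone (0.95, adjusted p = 0.05). By 120 min its Col-0 mean was 500% of that at 0 min and its rh6812 mean 262%. At 120 min it had 10.9, 18.1 and 12.6 CPM in rh6812, against 11.96, 12.3 and 15.9 CPM in Col-0, and the groups overlapped. Of the 17 reactive oxygen genes counted below, 1 (APX2) rose from 0 to 30 min in each genotype. Its log2 change was 4.85 ± 0.59 in Col-0 (adjusted p = 8.4e-07) and 2.25 ± 0.44 in rh6812 (adjusted p = 0.0021). Of all genes 5.90% rose in Col-0, and 2.95% were called in either direction in rh6812. Whether new transcripts of ZAT11 or APX2 were made was not tested.

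From 30 to 120 min the slope was the change per hour. ZAT11 rose in both genotypes, by 0.72 ± 0.19 log2 units per hour in rh6812 (adjusted p = 0.025) and 0.76 ± 0.19 in Col-0 (adjusted p = 0.005). AZF1 rose in Col-0 (0.66 ± 0.19, adjusted p = 0.012), and the other members' slopes were not called. Of all genes 2.15% rose in rh6812, where 5.16% were called in either direction, and 10.9% rose in Col-0, and with library size alone 98 genes rose and 1045 fell in rh6812 and 475 rose and 5820 fell in Col-0. The difference of the slopes was called for no member in edgeR or DESeq2, while 3.30% of all genes were called in edgeR, and AZF1 alone had an unadjusted p under 0.05 (-0.72 per hour, interval -1.24 to -0.20, adjusted p = 0.12).

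Of the 3 slope calls, 2 depended on single libraries. The rh6812 slope of ZAT11 was 0.74 without rh6812 30 min replicate 1, 0.70 without replicate 2 and 0.73 without replicate 3 of that time, and 0.57 without rh6812 120 min replicate 2 and 0.77 without replicate 3, with adjusted p of 0.054 to 0.14. The Col-0 slope of AZF1 was 0.57 without Col-0 30 min replicate 2, 0.60 without Col-0 120 min replicate 1 and 0.53 without Col-0 120 min replicate 3, with adjusted p of 0.051 to 0.079. The Col-0 slope of ZAT11 kept its call whichever of its 9 libraries was left out, from 0.66 to 0.87 per hour.

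Per kilobase of transcript, ZAT12 was the most abundant member in rh6812 total RNA, at 22.6 ± 2.8 CPM per kilobase (SD, n = 3). ZAT10 followed at 12.3 ± 0.9, then ZAT7 at 9.42 ± 2.13, ZAT5 at 9.06 ± 0.85 and ZAT6 at 8.27 ± 1.06, SD ranges overlapping between neighbours from ZAT10 to ZAT6, then AZF2 at 4.66 ± 1.23, AZF1 at 3.20 ± 0.68 and ZAT11 at 1.94 ± 0.44. In Col-0 total RNA ZAT5 came first at 6.80 ± 1.21, followed by ZAT6 at 4.32 ± 0.99, ZAT12 at 4.13 ± 1.10, AZF1 at 3.33 ± 0.69 and ZAT10 at 2.67 ± 0.76, with overlapping SD ranges between neighbours after the first. AZF2 at 1.88 ± 0.54, ZAT11 at 0.65 ± 0.14 and ZAT7 at 0.105 ± 0.121 were the lowest in Col-0. At 0 min ZAT10 was the most abundant in both, at 96.6 ± 11.8 CPM per kilobase in rh6812 and 50 ± 7.2 in Col-0. ZAT12 at 46.8 ± 3.2, ZAT6 at 32.2 ± 10 and AZF2 at 14.1 ± 0.4 followed in rh6812, against ZAT6 at 16.6 ± 3.6, ZAT12 at 12 ± 1.7 and AZF2 at 8.87 ± 1.54 in Col-0. AZF1, ZAT5, ZAT7 and ZAT11 lay between 5.62 and 8.66 in rh6812 and between 1.87 and 3.46 in Col-0, with overlapping SD ranges.

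Across the 14 group means, centred within each kind of library, the members were alike to different degrees. Pearson's r of log2 CPM was 0.94 between ZAT7 and ZAT10, 0.93 between ZAT12 and AZF2, 0.91 between ZAT7 and ZAT12 and 0.90 between ZAT10 and ZAT12. ZAT11 had the lowest values, with r from 0.03 (ZAT5) to 0.67 (ZAT6) with the other members. ZAT6 had r from 0.35 (ZAT5) to 0.73 (ZAT12 and AZF2), and AZF1 from 0.45 (ZAT11) to 0.77 (ZAT12). These values are a description of 14 means, which share the genotype contrast and the scaling of their libraries. Among 10619 or 10620 other genes, all with an average log2 CPM of 3 or more, the most alike to ZAT12 were ADT4 (r = 0.993), AtCDC48B (0.992) and PRP2 (0.991), and to ZAT10 PAP17 (0.983), DOGT1 (0.982) and AT5G51190 (0.977). For ZAT7 they were AT1G09932 (0.988), TIM9 (0.983) and AT3G62580 (0.983), for AZF1 WRKY6 (0.965), AT1G55530 (0.962) and RPK1 (0.956), and for AZF2 AT1G70000 (0.978), YSL2 (0.977) and LRL1 (0.976). For ZAT5 they were CIA2 (0.981), NAC083 (0.971) and PP2-A11 (0.969), for ZAT6 PGDH (0.966), AT2G35120 (0.962) and SDR3 (0.955), and for ZAT11 EIF3G1 (0.949), AT3G15260 (0.949) and p24delta5 (0.945).

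Other zinc finger genes of the family were counted beside the members. Of 11 relatives listed, 7 were tested in total RNA, where 2 rose (ZAT8 and ZAT1) and 2 fell, among them ZAT17 (-0.79 ± 0.24, adjusted p = 0.0051), with a median of 0.07. That is near the shares of all genes, of which 32.2% rose and 32.4% fell. In polysome RNA 3 rose and 2 fell, while 30.2% of all genes rose and 33.3% fell. In the rRNA-depleted libraries 6 were tested, of which 3 rose in rh6812 at 0 min (ZAT4 by 1.60 ± 0.22, ZAT8 by 2.04 ± 0.58 and ZAT9 by 0.81 ± 0.23), with a median of 0.61, while 24.4% of all genes rose. All 6 were called higher at 15, 30, 60 and 120 min, when 23.7% to 29.8% of all genes were. From 0 to 30 min in Col-0 4 of the 6 fell, while 5.24% of all genes did. In rh6812 edgeR called none of the 6, with 2 at an unadjusted p under 0.05, while it called 2.95% of all genes. The difference between the genotypes was called for none of the 6 either, with 2 at an unadjusted p under 0.05 and 0.275% of all genes called, and a difference in this early loss was not shown.

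Genes for the pathways in which the members are known to act were counted the same way. Of 17 genes of the reactive oxygen response, 16 were tested in total RNA, where 12 rose and 1 fell in rh6812 (median 0.98), while 32.2% of all genes rose and 32.4% fell. They include CAT2, a catalase (1.79 ± 0.10), and the glutathione transferases GSTU24 (2.16 ± 0.15) and GSTU25 (2.22 ± 0.17). At 0 min 11 of 17 rose and 1 fell (median 0.81), while 24.4% of all genes rose and 24.0% fell. Among the 11 were APX1, the cytosolic ascorbate peroxidase whose induction depends on ZAT12 (0.81 ± 0.12), and the oxidase gene RBOHF (1.095 ± 0.168). Of 15 touch and wounding genes 8 rose and 4 fell in total RNA (median 0.52), against the same 32.2% and 32.4% of all genes, and the 8 include CML37 (6.40 ± 0.32) and WRKY46 (4.46 ± 0.36). At 0 min 5 of the 15 rose and 1 fell (median 0.14), against 24.4% and 24.0% of all genes.

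The EAR motif works through corepressors, of which 7 were tested. In total RNA 4 rose in rh6812, among them TPL (0.69 ± 0.08), TPR4 (0.76 ± 0.10) and SAP18 (0.51 ± 0.09), and 2 fell, while 32.2% of all genes rose and 32.4% fell. At 0 min 2 rose, among them TPL (0.45 ± 0.12), and 2 fell, namely the histone deacetylase gene HDA19 (-0.59 ± 0.11) and TPR1 (-0.40 ± 0.14), near the shares of all genes, of which 24.4% rose and 24.0% fell. The TPR1 call was lost without Col-0 0 min replicate 3 (-0.38, adjusted p = 0.053) or rh6812 0 min replicate 3 (-0.33, adjusted p = 0.096), and with library size alone (-0.17, adjusted p = 0.47). The median of the list was 0.51 in total RNA and -0.09 at 0 min. The lists were drawn up with earlier results of these data known, and their counts describe them only.

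**Figure D4:**
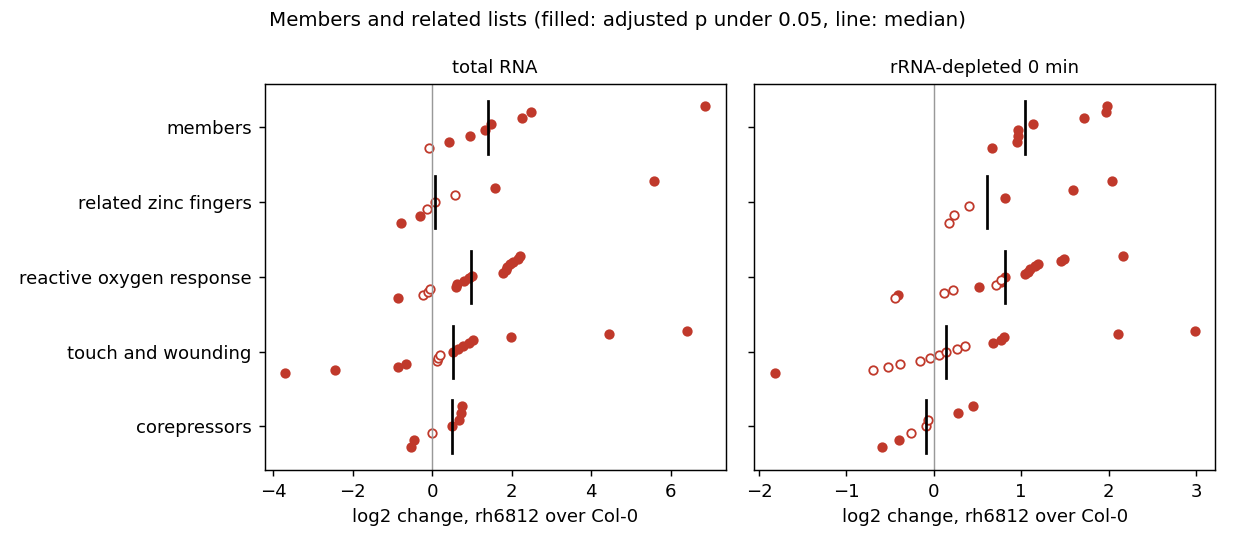
Log2 difference of rh6812 over Col-0 for the members and 4 related lists, in total RNA on the left and at 0 min in rRNA-depleted RNA on the right; each point is a gene, filled where the adjusted p is under 0.05, and the black line is the list's median. The members lie to the right of 0 except AZF1 in total RNA, while touch and wounding genes spread to both sides.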

How the data were processed

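The deposited table holds raw read counts per gene, and the authors applied no normalisation to them as far as the values show: they are whole numbers with a different total in each library. Reads were handled with Bowtie2 2.2.5 and TopHat2 2.0.14 on the TAIR10 build, per the submitters' processing notes. For the counting program, the strand setting and the isolation of polysomes, no description is given in the sources used here. Per the labels' protocols, poly(A)+ libraries and rRNA-depleted libraries were made by different methods. They were scaled and tested apart.

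Counts were scaled by TMM and tested with the quasi-likelihood test of edgeR 4.0.16 in R 4.3.3, with a robust fit of group means over the 12 poly(A)+ or the 30 rRNA-depleted libraries. filterByExpr removed genes of low count (minimum 10, minimum total 15), p-values were Benjamini-Hochberg adjusted over all genes tested, and calls had an adjusted p under 0.05. Intervals are 95%. There were 16 comparisons. Slopes are linear contrasts over 30, 60 and 120 min. Levels (CPM) are relative to the TMM-scaled library total. The scripts were tested on simulated data.

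The labels number the replicates without saying that they were grown apart, and p-values then reflect only how far these libraries spread, part of which may be technical. Same-numbered libraries deviated together, every pair's correlation being over 0.1, for polysome over total RNA in rh6812 (0.11 to 0.24), 15 min (0.18 to 0.41), 0 to 30 min in rh6812 (0.18 to 0.65) and Col-0 (0.47 to 0.59) and both slopes (0.36 to 0.69 in rh6812 and 0.28 to 0.62 in Col-0). Named are all 8 members, for other lists the called genes with the lowest p, and the 3 genes most alike to each member. The members and lists were chosen with earlier results of these data known. Alternatives were other size factors, library size alone, no filter, DESeq2 1.42.0, a replicate block, only the 6 libraries compared, other time contrasts and each library left out. Names, positions and sequences are from RefSeq TAIR10.1, matched by locus tag for 27455 loci.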

Additional observations from a re-analysis of the deposited data

How the results depend on the processing

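The members' genotype calls kept their direction under every alternative run. With the replicate block 1 member was called for ribosome association (ZAT6, 0.82, adjusted p = 0.045), against 0 without it. For that comparison same-numbered libraries had correlations from -0.07 to 0.36, not all over 0.1. Within a genotype, same-numbered poly(A)+ libraries ran from 0.07 to 0.35 (median 0.2), against a median of -0.06 for different numbers. The block was shared by both genotypes, so pairing within a genotype was not modelled. Of the comparisons with every pair over 0.1, the block changed the call of ZAT12 in polysome over total RNA of rh6812 and no other member's call. Over all genes the block moved the calls of the rh6812 slope to 1708, against 1108 without it, of the slope difference to 1268, against 709, and of the 0 to 30 min difference to 91, against 59. A line through all 5 times called 2 members in rh6812 and 6 in Col-0, and 1 for the difference (AZF1, -0.70, adjusted p = 0.0073). Beyond the members called from 30 to 120 min, ZAT10 fell in rh6812 (-0.24 per hour, adjusted p = 0.034). In Col-0 ZAT5 (-0.53, adjusted p = 0.017), ZAT10 (-0.46, adjusted p = 5.3e-05) and AZF2 (-0.33, adjusted p = 0.0018) fell. ZAT6 rose there (0.375, adjusted p = 0.0036). Taking 15 min in place of 30 min called 0 members in Col-0, where the times differ by construction. The share of all genes called was not counted for these other time contrasts, so their counts describe the members only.

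Leaving out each library in turn gave 3 to 5 members in polysome over total RNA of Col-0, 0 to 2 in ribosome association, 1 to 3 from 0 to 30 min in Col-0, 0 to 1 for the rh6812 slope and 1 to 2 for the Col-0 slope. It gave 7 to 8 in polysome RNA and at 0 min and 6 to 8 at 15 min. With a library left out the share of all genes called was not counted, so these counts describe the members only.

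Values that changed sign were uncalled by the tests of the report. With library size alone they were ZAT5 in polysome over total RNA of rh6812 (-0.15), ZAT11 at 60 min (0.14), ZAT12 from 0 to 30 min in rh6812 (-0.001), Col-0 (-0.084) and their difference (0.083), and ZAT11 for the slope difference (0.005). For the slope difference ZAT6 (-0.001) and ZAT10 (-0.015) did so with DESeq2-type size factors and ZAT10 (-0.014) in DESeq2. Against 15 min they were ZAT10 in rh6812 (0.10) and ZAT12 (0.067) and AZF1 (0.38) for the difference. With the line through all times they were AZF2 in rh6812 (-0.031), ZAT5 in Col-0 (-0.53, adjusted p = 0.017), and ZAT5 (0.18) and ZAT6 (-0.34) for the difference. The causes were not tested.

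With a library left out, the signs of these values changed within the ranges given. From 0 to 30 min they were AZF1 in Col-0 (-0.30 to 0.10), in rh6812 (-0.36 to 0.035) and for the difference (-0.30 to 0.12), and ZAT12 in Col-0 (-0.07 to 0.19), in rh6812 (-0.046 to 0.192) and for the difference (-0.14 to 0.12). For the slopes they were AZF1 (-0.112 to 0.039), ZAT10 (-0.185 to 0.052) and ZAT7 (-0.267 to 0.015) in rh6812 and AZF2 in Col-0 (-0.13 to 0.11). For the slope difference they were ZAT10 (-0.11 to 0.13), ZAT11 (-0.194 to 0.063), ZAT12 (-0.16 to 0.20) and ZAT6 (-0.18 to 0.18). For genotype they were AZF1 in total RNA (-0.27 to 0.13), ZAT11 at 60 min (-0.36 to 0.032) and 120 min (-0.18 to 0.18), and ZAT6 at 60 min (-0.15 to 0.21) and 120 min (-0.12 to 0.38). For polysomes they were AZF2 (-0.46 to 0.13) and ZAT5 (-0.067 to 0.081) over total RNA of rh6812 and ZAT10 for ribosome association (-0.415 to 0.056). Low counts of ZAT7 and ZAT11 in Col-0 limit the precision of their values.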
